A study of Mus musculus with 4 samples.

Results

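The transcripts described here are those of 10 genes of the RNA interference machinery, measured in NIH3T3 cells after transfection with an siRNA. They are the 4 Argonaute genes Ago1, Ago2, Ago3 and Ago4, the 3 genes of the TNRC6 (GW182) family, Tnrc6a, Tnrc6b and Tnrc6c, and the processing and export genes Dicer1, Tarbp2 and Xpo5. Their members on the array are all non-control probes that carry one of these gene names, which gave 27 of 56605 probes. Of these, 20 were bright enough to be tested, among 26015 tested probes in all, and each of the 10 genes had at least 1 tested probe.

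NIH3T3 is an established mouse fibroblast line, and the labels also call the cells dermal fibroblasts. The study compared NIH3T3 cells given an siRNA against Timp1 (siTIMP1, 2 arrays) with NIH3T3 cells given a control siRNA (siControl, 2 arrays). In both groups the siRNA was delivered with apatite nanoparticles, which the labels abbreviate sCA, and the culture medium held 2% fetal calf serum. Cells of both groups had therefore been given an siRNA, and no untransfected cells were analysed here. Total RNA was read with a single dye, Cy3, on Agilent arrays whose probes are 60 bases long.

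In RNA interference, a short double-stranded RNA is loaded into an Argonaute protein, which keeps 1 strand as a guide and uses it to find complementary transcripts. An siRNA is loaded directly, whereas a microRNA is first cut from a hairpin, carried out of the nucleus by Exportin 5 (Xpo5) and trimmed by Dicer (Dicer1) with its partner TRBP (Tarbp2). Among the mouse Argonautes, Ago2 is the one best known for cutting a fully matched target. TNRC6 proteins bind Argonautes and bring the CCR4-NOT and PAN2-PAN3 deadenylases to the target, so that its tail is shortened and its translation reduced.

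All levels below are normalised log2 signals, that is, log2 of the processed spot intensity minus the 75th percentile of the same array. A level of 0 is thus a signal at that percentile, and levels are compared between arrays for 1 probe, never between probes. Differences are siTIMP1 minus siControl in log2 units, given with SE, the standard error of the limma fit, and its 95% interval. A probe was called changed when its limma p-value, adjusted over all 26015 tested probes, was under 0.05. Nothing in the labels says that the arrays of a group stand for separate cultures, and the spread behind each p-value, which is that between these samples, may be technical.

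The 4 arrays shared 1 slide and 1 scan, with the siTIMP1 arrays at positions 3 and 4 and the siControl arrays at positions 1 and 2, so position and group cannot be told apart. Spots well above background made up 50.4% and 45.9% on the siTIMP1 arrays, against 50.7% and 52.1% on the siControl arrays. The targeted gene matched its labels. Timp1 (chrX:20451675-20451733, mm9) had levels of 3.31 and 3.03 in siTIMP1 cells, against 8.22 and 8.56 in siControl cells, and 2.68% of the control signal was left. All 10 fibroblast markers looked up, among them Col1a1 and Vim, were above background, and none of the 4 endothelial or 3 neural markers was. Of 5 epithelial markers Krt8 and Krt14 were above background, with processed intensities of at most 56.3, and of 3 muscle markers Des was, at no more than 14.1. Of the leukocyte markers, Cd68, Cd3e and 1 of 7 probes of Ptprc were above background, and Adgre1 was not. Processed intensities ran from 589 to 791 for Ptprc, 149 to 273 for Cd3e and 106 to 132 for Cd68. The lowest intensity of a fibroblast marker was 506, for Pdgfra. In RNA from a whole culture, fewer cells with a transcript and less of it per cell cannot be told apart.

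Among the 10 genes, Tnrc6a fell in siTIMP1 cells, and it was the only one that passed the test. Ago3, Ago4 and Ago1 had lower signals in siTIMP1 cells without passing it, with differences of -0.79, -0.58 and -0.48. Xpo5 and Tarbp2 had differences of 0.33 and 0.27, and the values of the other genes lay between -0.19 and -0.078. In count, 0 of 10 genes were called higher and 1 was called lower, where 0.0958% of 13563 genes with a symbol were called higher and 0.833% were called lower. At an unadjusted p under 0.05, 2 genes were higher and 4 lower, against a background of 12.7% and 8.38%.

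**Figure D1:**
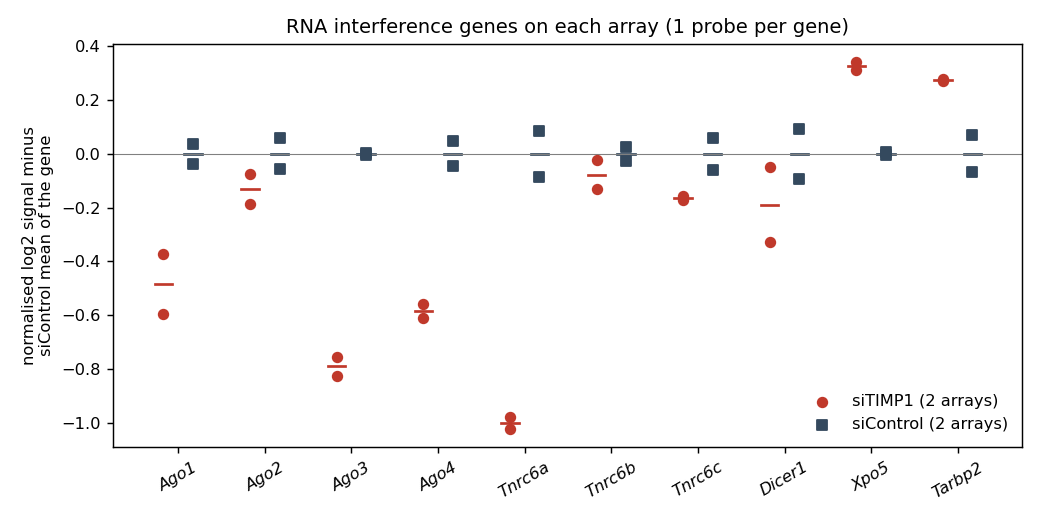
Normalised log2 signal of each gene's representative probe (the tested probe of highest mean) on each array, minus the siControl mean of that gene, with siTIMP1 arrays as red circles, siControl arrays as dark squares and short lines for the group means. Tnrc6a and Ago3 lie farthest below 0 in siTIMP1 cells, Xpo5 and Tarbp2 lie above it, and the 4 points of Tnrc6b and Dicer1 overlap between the groups.

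The groups did not overlap for 8 of the 10 genes, 2 higher and 6 lower in siTIMP1 cells. Non-overlap was common on these arrays, since 33.3% of all genes with a symbol lay higher in both siTIMP1 arrays and 22.5% lay lower in both. The median difference of the 10 genes was -0.18, against 0.037 over all genes with a symbol, of which 7621 were above 0 and 5942 below. The median level of the 10 genes was 1.55 and 1.56 on the siTIMP1 arrays, against 1.66 and 1.68 on the siControl arrays. Counted by probe, 18 of the 20 tested probes were below 0 and 2 above, with a median of -0.18 against 0.018 over all tested probes. None of the 20 was called higher and 1 was called lower, where 0.073% and 0.634% of all tested probes were. At an unadjusted p under 0.05, 2 were higher and 7 lower, against a background of 10.1% and 7.71%.

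Of the 3 genes for TNRC6 scaffold proteins, 1 was called. Tnrc6a fell in siTIMP1 cells to 50.1% of the siControl signal by its brighter probe, while no tested probe of Tnrc6b or Tnrc6c passed the test. The brighter Tnrc6a probe lies at chr7:130337143-130337202 on the plus strand (mm9), at position 6811 of the transcript the files name. It had levels of 1.57 and 1.52 in siTIMP1 cells, against 2.63 and 2.46 in siControl cells. The siTIMP1 arrays lay close together and well below both siControl arrays, which were 0.17 apart. The difference was -0.999 (SE 0.0904, 95% interval -1.23 to -0.77, limma adjusted p = 0.0286). The call was lost when an array of siTIMP1 was left out, with differences of -1.02 without replicate 1 and -0.98 without replicate 2. It was also lost with a variance prior that does not follow the signal (limma adjusted p = 0.135). These losses were not particular to Tnrc6a, since the targeted gene Timp1 lost its call in the same settings.

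A second Tnrc6a probe, nearer the 5′ end of the transcript, gave the lowest value of all 20 probes. It lies at chr7:130317766-130317825 on the plus strand (mm9), at transcript position 3858, far from the brighter probe on the same mRNA. Its sequence, from the scanner files, is shown because its value was the lowest of the 20.
Tnrc6a: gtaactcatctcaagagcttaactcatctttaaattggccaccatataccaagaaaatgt
Its levels were -2.34 and -1.96 in siTIMP1 cells, against -0.83 and -0.52 in siControl cells, again with no overlap. The difference was -1.48 (SE 0.195, 95% interval -1.97 to -0.98, limma adjusted p = 0.0607), just short of the threshold. With normexp background correction, which adds an offset of 50 and so compresses dim probes, it was -0.82 (limma adjusted p = 0.0806). The probes of Tnrc6a differed from each other by 0.48 in their log2 difference, which did not pass the test of probes within a gene (limma diffSplice adjusted p = 0.546).

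Tnrc6b and Tnrc6c, the paralogs with the same kind of Argonaute-binding and silencing function, had values near 0. Tnrc6b had levels of 0.41 and 0.52 in siTIMP1 cells, against 0.57 and 0.51 in siControl cells, and the groups overlapped. Its difference was -0.078 (95% interval -0.32 to 0.16, limma adjusted p = 0.678). Its other 3 probes were not well above background on any array, so Tnrc6b rests on 1 probe. Tnrc6c had levels of 1.81 and 1.82 in siTIMP1 cells, against 2.04 and 1.92 in siControl cells, with a difference of -0.17 (95% interval -0.37 to 0.044, limma adjusted p = 0.354). A second Tnrc6c probe, 0.31 and 0.41 in siTIMP1 cells against 0.46 and 0.27 in siControl cells, overlapped between groups and gave -0.0015 (95% interval -0.29 to 0.28). The intervals of Tnrc6b and Tnrc6c thus do not reach the value of Tnrc6a, although the difference between the genes was not itself tested.

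The 4 Argonaute genes were all below 0, with a median of -0.53, and none was called. Their 10 probes included 8 tested ones, and all 8 lay lower on both siTIMP1 arrays than on either siControl array, where 23.3% of all tested probes did and 29.4% lay higher. The 8 differences ran between -1.003 and -0.063, with a median of -0.64, and 5 had an unadjusted p under 0.05 in the lower direction, against the same 7.71% of probes. Probes of 1 gene read the same RNA, and Ago1, Ago3 and Ago4 are paralogs, so these are not 8 independent measurements.

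Ago3, an Argonaute that binds microRNAs and is less abundant than Ago2 in many cells, came nearest to the threshold. Its brightest probe (chr4:126010997-126011056, minus strand, mm9, at position 14514 of a long transcript form) had levels of -0.61 and -0.68 in siTIMP1 cells, against 0.14 and 0.15 in siControl cells. Replicates differed by less than 0.1 in each group, and the groups were clearly apart. The difference was -0.79 (SE 0.0986, 95% interval -1.04 to -0.54, limma adjusted p = 0.0556). Ago3 was called in 6 of 15 alternatives, among them a filter that asks for signal above background on all 4 arrays (limma adjusted p = 0.0481). The 6 include the looser threshold of 0.1, under which its limma adjusted p of 0.0556 counts as a call. With all 4 arrays in the fit, its limma adjusted p ran between 0.0249 and 0.147. With an array left out, its difference ran between -0.82 and -0.75.

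The other Ago3 probes gave values of like size. The one at chr4:126018000-126018059 had levels of -0.78 and -1.17 in siTIMP1 cells, against 0.035 and -0.29 in siControl cells, with a difference of -0.85 (SE 0.188, limma adjusted p = 0.141). The dim one at chr4:126032332-126032391 had -4.05 and -3.50, against -2.80 and -3.33 in siControl cells, with a difference of -0.71 (95% interval -1.55 to 0.13, limma adjusted p = 0.335). The processed intensity of that dim probe was 11.2 and 16.2 in siTIMP1 cells, against 25.7 and 17.7 in siControl cells, close to the background of the arrays, and normexp correction gave -0.19. None of the 3 Ago3 probes differed from the others in the test of probes within a gene, where 0.283% of 14129 probes did.

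Ago2, the Argonaute with slicing activity, had values near 0 on its bright probes. Its brightest probe (chr15:72929135-72929194, minus strand, mm9) had levels of 3.91 and 4.03 in siTIMP1 cells, against 4.16 and 4.04 in siControl cells, with a difference of -0.13 (95% interval -0.33 to 0.066, limma adjusted p = 0.416). The probe at chr15:72936863-72936922 had 2.52 and 2.52 in siTIMP1 cells, against 2.60 and 2.56 in siControl cells, with a difference of -0.063 (95% interval -0.24 to 0.11, limma adjusted p = 0.644). Both siTIMP1 values lay below both siControl values on each of these probes, but by little, and neither interval reaches the value of Tnrc6a.

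The third Ago2 probe stood apart from these. Its levels were -3.36 and -3.08 in siTIMP1 cells, against -2.40 and -2.04 in siControl cells, and the groups did not overlap. The difference was -1.003 (SE 0.228, 95% interval -1.58 to -0.42, limma adjusted p = 0.146). Against the other 2 Ago2 probes it was lower by a further -0.91, with an unadjusted p of 0.000756 that missed the threshold after adjustment (limma diffSplice adjusted p = 0.0945). It was a dim probe, with a processed intensity of 18.1 and 21.7 in siTIMP1 cells, against 34 and 43.5 in siControl cells, and normexp correction gave -0.34. With the mean of its 3 probes Ago2 had a difference of -0.40 (limma adjusted p = 0.175), so the value of this gene depends on which probe is read. Whether a probe also picks up RNA of a paralogous Argonaute was not tested.

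Ago4 and Ago1 had values between those of Ago2 and Ago3. Ago4, read by 1 tested probe (chr4:126169537-126169596, minus strand, mm9), had levels of -2.38 and -2.43 in siTIMP1 cells, against -1.86 and -1.77 in siControl cells. The difference was -0.58 (SE 0.149, 95% interval -0.96 to -0.20, limma adjusted p = 0.169), and normexp correction gave -0.23. Ago1, also read by 1 tested probe (chr4:126115585-126115644, minus strand, mm9), had 1.54 and 1.77 in siTIMP1 cells, against 2.17 and 2.10 in siControl cells. Its difference was -0.48 (SE 0.104, 95% interval -0.75 to -0.22, limma adjusted p = 0.135). For both genes the groups did not overlap. A second probe of each gene was not well above background on any array.

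**Figure D2:**
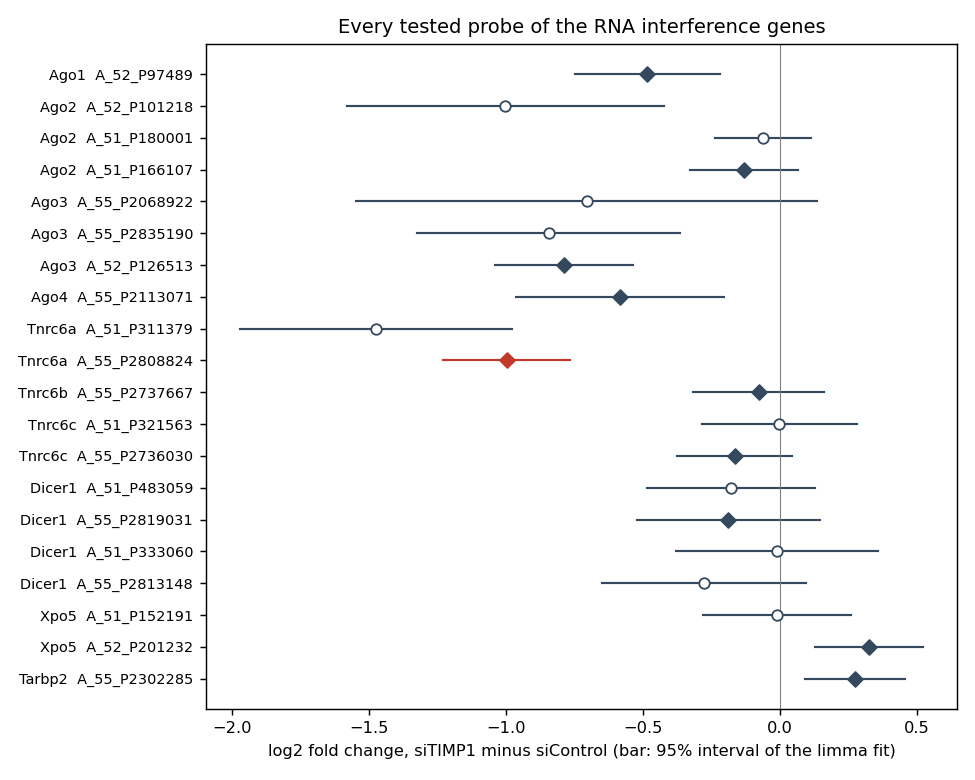
Log2 difference, siTIMP1 minus siControl, of each of the 20 tested probes, with the 95% interval of the limma fit. Diamonds are the probes that represent their gene, open circles are further probes, and red marks the called Tnrc6a probe. The 3 Ago3 probes lie between -0.85 and -0.71, whereas the Ago2 probes lie at -1.003, -0.063 and -0.13.

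Dicer1, Tarbp2 and Xpo5 act upstream of Argonaute on microRNA precursors. Dicer1, the nuclease that releases the microRNA duplex, had levels of 1.30 and 1.02 in siTIMP1 cells, against 1.25 and 1.44 in siControl cells, on its brightest probe. The groups overlapped, and the difference was -0.19 (95% interval -0.52 to 0.15, limma adjusted p = 0.477). The other 3 tested Dicer1 probes gave -0.28, -0.18 and -0.010, with adjusted p-values of 0.375, 0.469 and 0.975 in the limma fit. These 3 are annotated to the same transcript, whereas the brightest probe (chr12:105964455-105964514, minus strand, mm9) is annotated to a different one. Whether the brightest probe reads another form of Dicer1 RNA was not tested. With the mean of its tested probes Dicer1 had a difference of -0.16 (limma adjusted p = 0.43). The probe at -0.010 spans 2072 bases of genome and so crosses a splice junction, and its sign turned with normexp correction, which gave 0.013. The remaining probe was not well above background on any array.

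Tarbp2, the double-stranded RNA-binding partner of Dicer, had levels of 4.33 and 4.33 in siTIMP1 cells, against 4.13 and 3.99 in siControl cells. Both siTIMP1 arrays lay above both siControl arrays, with a difference of 0.27 (SE 0.0717, 95% interval 0.091 to 0.46, limma adjusted p = 0.173). Xpo5, the nuclear exporter of microRNA precursors, had 1.62 and 1.60 in siTIMP1 cells, against 1.28 and 1.29 in siControl cells. Again the groups did not overlap, with a difference of 0.33 (SE 0.0774, 95% interval 0.13 to 0.52, limma adjusted p = 0.155).

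The probes of Xpo5 gave different values. The probe just described (chr17:46378755-46378814, plus strand, mm9) lies about a kilobase from another (chr17:46379784-46379843), which had 0.031 and 0.18 in siTIMP1 cells, against 0.16 and 0.081 in siControl cells. The groups overlapped on that second probe, with a difference of -0.011 (95% interval -0.28 to 0.26, limma adjusted p = 0.963). The probes differed by 0.34, with an unadjusted p of 0.0323 that did not pass adjustment (limma diffSplice adjusted p = 0.374). With the mean of both probes Xpo5 had a difference of 0.16 (limma adjusted p = 0.389).

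**Figure D3:**
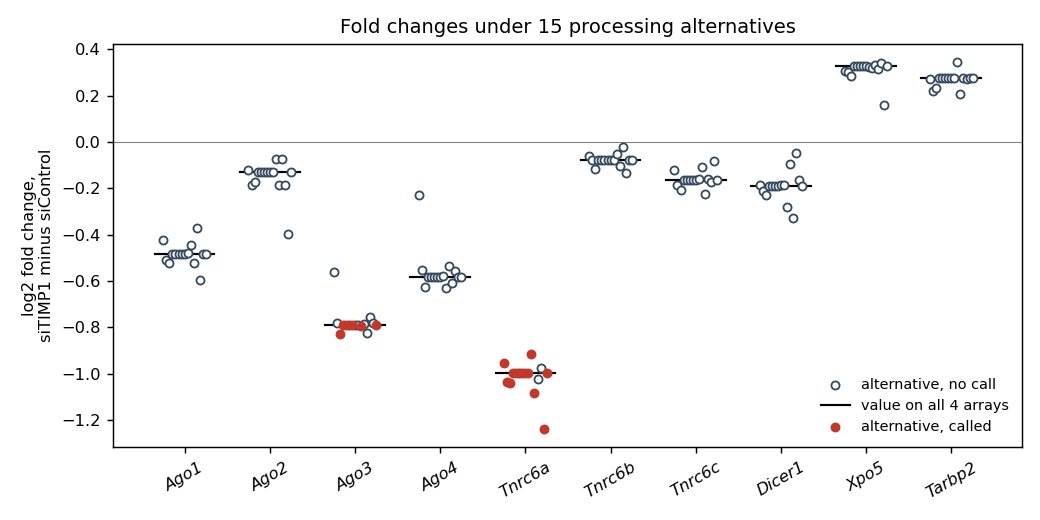
Log2 difference of each gene, siTIMP1 minus siControl, under the 15 processing alternatives (points, red where limma called the gene) beside the value on all 4 arrays (black lines). Every gene kept its sign in all 15, Tnrc6a was called in 12 and Ago3 in 6, and none of the other 8 genes was called in any.

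Ago4, Ago1 and Ago3 are neighbours on chromosome 4, where their probes lie between 126010997 and 126193194 (mm9), all on the minus strand. Of the 11 other tested genes with a symbol and a probe within 200 kb of this cluster, 10 were above 0 and 1 below, with a median of 0.15. Over all 13563 genes with a symbol, 7621 were above 0 and the median was 0.037. Tested probes without a symbol are not counted there. The one inside the span of Ago3, described below, gave -0.79, and the others gave 0.087 and 0.074. Stk40, a pseudokinase gene, rose, with levels of 3.84 and 3.84 in siTIMP1 cells, against 3.25 and 3.13 in siControl cells (difference 0.65, SE 0.0723, limma adjusted p = 0.0425). Like those of Tnrc6a and Timp1, its call was lost without siTIMP1 replicate 1 (0.64) and without siTIMP1 replicate 2 (0.65). The call was also lost with a variance prior that does not follow the signal (limma adjusted p = 0.17). None of the other 10 passed the test. Their differences were 0.28 for the proteasome subunit gene Psmb2, 0.19 for Tekt2, 0.18 for Adprhl2, 0.15 for Trappc3, 0.13 for Eva1b, 0.12 for Sh3d21, 0.079 for Map7d1, 0.037 for Thrap3 and -0.15 for 5730409E04Rik. Clspn, a checkpoint gene, had 0.14 and -1.94 in siTIMP1 cells, against -1.59 and -2.07 in siControl cells, and its value of 0.93 (SE 0.677, limma adjusted p = 0.496) rested on siTIMP1 replicate 1. Further probes of Clspn, Psmb2 and Thrap3 gave values of the other sign, among them -0.47, -0.22 and -0.36.

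The promoters of these 3 neighbouring genes are shown because all 3 genes had lower signals in siTIMP1 cells without passing the test. Each is the 250 bases before the first start site in RefSeq (GRCm38.p6), at chr4:126468632-126468881 for Ago1, chr4:126429543-126429792 for Ago3 and chr4:126533459-126533708 for Ago4, all on the minus strand. Capitals mark GGGCGG on either strand (CCGCCC where it is on the other), overlapping matches included.
Ago1: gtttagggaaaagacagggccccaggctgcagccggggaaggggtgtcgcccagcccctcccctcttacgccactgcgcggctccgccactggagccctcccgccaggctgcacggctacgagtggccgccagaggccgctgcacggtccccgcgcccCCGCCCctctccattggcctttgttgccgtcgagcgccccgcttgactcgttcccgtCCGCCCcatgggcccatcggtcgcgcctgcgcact
Ago3: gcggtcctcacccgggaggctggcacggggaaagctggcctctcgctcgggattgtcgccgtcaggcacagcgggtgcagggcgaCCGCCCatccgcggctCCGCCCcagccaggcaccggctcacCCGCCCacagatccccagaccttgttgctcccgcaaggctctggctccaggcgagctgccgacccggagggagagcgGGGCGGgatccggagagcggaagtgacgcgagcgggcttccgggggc
Ago4: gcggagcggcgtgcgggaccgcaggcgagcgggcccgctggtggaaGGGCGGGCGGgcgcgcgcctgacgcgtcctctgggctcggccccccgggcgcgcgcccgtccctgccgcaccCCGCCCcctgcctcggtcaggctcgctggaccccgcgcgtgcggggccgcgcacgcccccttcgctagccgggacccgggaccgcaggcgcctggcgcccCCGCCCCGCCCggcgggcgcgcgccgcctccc
GGGCGG occurred 2 times in the Ago1 window, 4 times in the Ago3 window and 5 times in the Ago4 window. Promoter sequence was found for 9 of the 10 genes, all but Ago2. Of these 9, 7 held GGGCGG on either strand, against 32.7% of 32851 promoters of the same length, 4 held CCAAT against 33.8%, and 0 held TATAAA against 12.4%. GC content was above the median of all promoters (52.4%) in 8 of 9. The exception was Tnrc6a, with 42.4% GC, and the genes without GGGCGG were Tnrc6a and Tnrc6c. These matches describe the letters in the windows only.

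The other genes of the small RNA pathway were grouped into lists by role, and 1 gene among them was called. Over all genes with a symbol, 0.0958% were called higher and 0.833% lower, and 7621 of 13563 lay above 0. Of 35 genes for deadenylation, decapping and decay, which act after TNRC6 on a silenced mRNA, 0 were called higher and 1 lower, with a median difference of 0.043. The called gene was Cnot6, which encodes a catalytic deadenylase subunit of CCR4-NOT. It had levels of 3.04 and 2.92 in siTIMP1 cells, against 4.12 and 4.20 in siControl cells, with no overlap. The difference was -1.18 (SE 0.0747, 95% interval -1.37 to -0.99, limma adjusted p = 0.0196). All 4 tested Cnot6 probes were called, the other 3 with -1.12, -1.25 and -1.53 (limma adjusted p = 0.032, 0.0386 and 0.0212). As for Tnrc6a and Timp1, the call was lost without siTIMP1 replicate 1 (-1.24) and without siTIMP1 replicate 2 (-1.12). It was also lost with a variance prior that does not follow the signal (limma adjusted p = 0.128).

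Within the same list, Cnot9, a CCR4-NOT subunit that TNRC6 proteins contact, had -1.64 and -1.58 in siTIMP1 cells, against -1.01 and -1.10 in siControl cells, with a difference of -0.56 (limma adjusted p = 0.141). Its second probe gave -0.67 (limma adjusted p = 0.25). Pan3, the adaptor subunit of the PAN2-PAN3 deadenylase, had a difference of 0.29 (limma adjusted p = 0.156) and Eif4e2, a cap-binding repressor, had 0.32 (limma adjusted p = 0.131), although a dimmer Pan3 probe gave -0.23. Over the list, 21 genes were above 0 and 14 below.

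The remaining lists held no called gene. Of 15 genes of the microprocessor and nuclear processing, 9 were above 0 and 6 below, with a median of 0.092. Drosha, the nuclease that cuts primary microRNAs, had 3.73 and 3.78 in siTIMP1 cells, against 3.75 and 3.82 in siControl cells, with a difference of -0.026. Its cofactor gene Dgcr8 had -0.18 and -0.079 in siTIMP1 cells, against 0.034 and 0.20 in siControl cells, with a difference of -0.25 (limma adjusted p = 0.32). Drosha and Dgcr8 fall outside the naming rule and were added, after their values were seen, as the core of that complex. The genes of smallest p there were Srrt at 0.45, Ddx5 at 0.23, Hnrnpa1 at -0.17 and Adarb1 at -0.37. The probes of 3 of these genes disagreed in sign, since others gave 0.41 for Adarb1, 0.43 for Hnrnpa1 and -0.10 for Ddx5. Averaged over its tested probes, Ddx5 stayed above 0, at 0.046. Hnrnpa1 and Adarb1 turned sign when averaged in this way, to 0.062 and 0.0042, so neither can be read as lower.

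Of 24 genes for small RNA loading and Argonaute partners, 17 were above 0 and 7 below, with a median of 0.080. Ajuba, a LIM protein gene of the family that links Argonaute to the cap complex, had 0.25 and 0.35 in siTIMP1 cells, against 0.62 and 0.73 in siControl cells (difference -0.37, limma adjusted p = 0.178). Its relative Wtip had 0.25 (limma adjusted p = 0.155), Dnaja2, a co-chaperone gene, had 0.21, and Zswim8, whose product directs Argonaute decay on highly paired targets, had 0.19. Of 10 tested genes for tailing, trimming and turnover of small RNAs, 6 were above 0 and 4 below, with a median of 0.096. There Eri1, a 3′ exonuclease gene, had -0.80 and -0.75 in siTIMP1 cells, against -0.30 and -0.23 in siControl cells, with a difference of -0.51 (limma adjusted p = 0.128). Usb1 had -0.39, and Tut1 and Dis3l2 had 0.22 and 0.16, with 0.60 from a dimmer Tut1 probe and -0.46 from a dimmer Dis3l2 probe.

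Of 11 genes for sensors of double-stranded RNA, which can respond to transfected RNA, 6 were tested, 5 above 0 and 1 below, with a median of 0.069. Rigi had -0.51 and -0.60 in siTIMP1 cells, against -0.28 and -0.12 in siControl cells (difference -0.36, limma adjusted p = 0.215), and its second probe gave -0.86 (limma adjusted p = 0.19). Dhx58 had -4.16 and -3.38 in siTIMP1 cells, against -5.08 and -4.56 in siControl cells. It was not well above background on either siControl array, so it entered the test through its siTIMP1 signal alone. It did not pass (difference 1.05, interval of the limma fit -0.054 to 2.16, limma adjusted p = 0.295), and normexp correction gave 0.14. Each siControl value was also replaced by the lowest signal well above background on that array, unless its own signal was higher. The siTIMP1 mean was then 1.71-fold higher, a ratio without an error that sets no lower limit on a rise. Eif2ak2 and Zc3hav1 had 0.069 and 0.070, and Ifih1, Tlr3, Oas1a, Oas2 and Oas3 were below the brightness filter. Of 12 germline Argonaute and piRNA genes only Tdrkh was tested, with a difference of 0.36 (limma adjusted p = 0.252) and 1.03 on a second probe (limma adjusted p = 0.254), and Piwil1, Piwil2 and Piwil4 were not well above background.

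**Figure D4:**
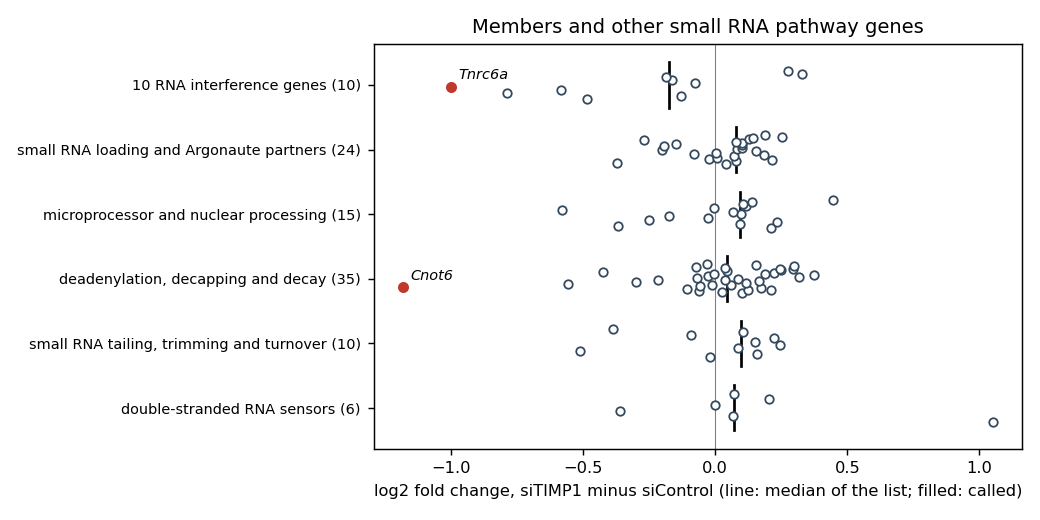
Log2 difference, siTIMP1 minus siControl, of each tested gene in the 10 genes described here and in 5 lists of other small RNA pathway genes (points, 1 representative probe a gene, number tested in brackets), with the list median as a line and called genes filled and named. The median of the 10 genes is -0.18 and those of the other lists lie between 0.043 and 0.096.

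The genes whose levels over the 4 arrays were most like those of Tnrc6a, by the Euclidean distance of centred log2 values among 12630 candidate genes, were Zbtb18, Gmfb and Cd99l2. Their distances were 0.040, 0.0495 and 0.0794. Gmfb had levels of 3.08 and 3.01 in siTIMP1 cells, against 4.07 and 3.96 in siControl cells, with a difference of -0.97. Zbtb18 and Cd99l2 had differences of -0.96 and -1.02. The 15 alternatives, run for these genes after seeing the data, gave differences between -1.03 and -0.91 for Gmfb. They ran between -1.05 and -0.80 for Zbtb18 and between -1.07 and -0.58 for Cd99l2. With 4 arrays in 2 groups, this likeness is mostly a like difference between the groups.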

How the data were processed

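The deposited spot intensity is scanner output. The submitters' processing notes name Agilent Feature Extraction 11.5.1.1. Per the file headers the processed signal is background-subtracted within each array. The deposited log2 value table followed log2 of that signal (Pearson r of 1) minus a constant per array, 6.95 and 6.96 for siTIMP1 and 6.92 and 6.90 for siControl, with column medians of -3.99, -3.91, -3.94 and -3.86. Its scale and direction are therefore known, and it served as an alternative. Per the file headers, coordinates are mm9.

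Control and outlier spots (136 to 250 per array) were left out, no spot was saturated, and log2 signals were scaled to the 75th percentile of each array. Tested probes had values on each of the 4 arrays, and 1 group or both had them well above background on each array. limma 3.58.1 in R 4.3.3 (lmFit, eBayes with trend) compared the groups, Benjamini-Hochberg adjusted over 26015 probes, and diffSplice compared probes within genes. A gene is its tested probe of highest mean. Symbols were updated through RefSeq for 1535 probes. Groups come from sample titles, and replicate numbers follow accession order. The number of arrays limits the precision.

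The genes and lists were chosen with earlier results of these data known. Named were all 10 genes, Timp1, up to 4 genes a list (called first, then smallest p), genes beside the Ago cluster, and the 3 most like Tnrc6a.

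Tested on simulated data over 26015 probes, the fit called 4% of probes given a 1.5-fold change and 50% of those given a 2-fold change. It called 86% of 4-fold and 96% of 8-fold changes, and 10 unchanged probes. The simulated noise was drawn independently for each probe, from a spread estimated without a trend over the signal, whereas the fit used a trend. These rates may therefore differ from those on the arrays. Alternatives were normexp, quantile and detected-probe scaling, other filters, other variance priors, outliers kept, the authors' table, mean of probes, a threshold of 0.1 and leaving out each array.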

Additional observations from a re-analysis of the deposited data

How the results depend on the processing

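Over 15 alternatives the sign of each of the 10 genes was kept, and their calls were unchanged in 141 comparisons, gained in 6 (Ago3) and lost in 3 (Tnrc6a). The other filters, variance priors and threshold left the differences of these genes as they were, so they could not move a sign. Nor could the mean of probes for a gene with 1 tested probe. The number of the 10 genes called was 2, Tnrc6a and Ago3, with scaling over detected probes, the stricter filter, no filter, robust priors and a threshold of 0.1, and 0 without a trend; it ranged between 0 and 2 when an array was left out, 2 without siControl replicate 1 and 0 without either siTIMP1 array. Their median was -0.15 with normexp, -0.20 with quantile scaling, -0.22 with scaling over detected probes and -0.28 with the mean of probes, and between -0.24 and -0.18 with an array left out. Without a trend limma called 0 probes, 0 genes and 0 of the listed pathway genes, and Timp1 kept -5.22 at an adjusted p of 0.128. Called probes numbered 476 with no filter, 292 with robust priors and 514 at a threshold of 0.1, against 184. Called genes numbered 330, 194 and 348 in those settings and 61 with the mean of probes, against 126. Leaving out an array gave between 0 and 1026 called probes, between 0 and 672 genes and between 0 and 2 listed genes (Cnot6 and Adarb1 without siControl replicate 1), with 0 in each without either siTIMP1 array. Timp1 then ranged between -5.40 and -5.05, with limma adjusted p-values of 0.0937 (value -5.37) and 0.108 (value -5.08) without siTIMP1 replicate 1 and 2. Probes that differed within their gene numbered 113 with normexp, 23 with the stricter filter, 10 with no filter and between 7 and 33 with an array left out, against 40; none belonged to the 10 genes in the settings run. With 1 array left in a group, limma assumes that it varies like the others. Of the genes beside the Ago cluster, for which these alternatives were chosen after seeing the data, 0 were called without a trend, 0 with the mean of probes, and between 0 and 1 with an array left out, against 1 (Stk40). No paired analysis was possible because the labels give the groups no shared replicate numbers. Dim probes limit the Ago2, Ago3 and Ago4 values, which normexp compressed. Of the simulated 2-fold changes 50% were called, and of the 1.5-fold changes 4%. The differences of Ago1 (1.40-fold lower) and Xpo5 (1.25-fold higher) were smaller still, so changes of that size would mostly be missed in such simulated data.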

Other observations

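A probe for a long noncoding RNA, named in the files by its interval, lies on the plus strand inside the span of the minus-strand Ago3 gene (chr4:126015653-126015712, mm9). It was chosen after its values were seen. Its levels were -0.45 and -0.62 in siTIMP1 cells, against 0.25 and 0.26 in siControl cells, and the groups did not overlap. The difference was -0.79 (SE 0.108, limma adjusted p = 0.0651), beside -0.79 for the brightest Ago3 probe.

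A further probe that the files describe as part of an Argonaute 4 transcript, but place on chromosome 9, had -3.32 and -3.70 in siTIMP1 cells, against -3.45 and -1.95 in siControl cells. The groups overlapped, with a difference of -0.81 (SE 0.524, limma adjusted p = 0.451). The probe named Eif2c5 was not well above background on any array.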
